A study of Nothobranchius furzeri with 10 samples.

Results

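The genes described here are the 150 liver transcripts of the turquoise killifish, Nothobranchius furzeri, whose levels varied most between libraries of the same treatment, in both treatments at once. They were chosen from 26739 genes in the count table. Counts of the 10 libraries were divided by median-of-ratios size factors, and log2(normalized count + 1) was taken. The 100 genes of highest mean level were left out and a mean normalized count of at least 200 was required, which left 10090 eligible genes. Each eligible gene was ranked by the smaller of its 2 SDs, within the DMSO libraries and within the rotenone libraries, and the 150 highest were taken. Members are called here by their rank on this smaller SD, since none of the 150 IDs (0) could be paired with a gene name. The SDs within groups chose the members, so their height is a description and not a finding.

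All 10 samples were livers of male fish of the strain MZM-0410p aged 27 weeks. The control group, 5 samples, received DMSO, the solvent that rotenone is commonly dissolved in. The treated group, also 5 samples, received rotenone at 15 pM, an inhibitor of complex I of the mitochondrial respiratory chain. The labels used here give no route, duration or batch, and do not state that samples came from different animals. The spread behind each p-value is therefore that of the samples as deposited, and some of it may be technical. Without gene names, the labelled tissue could not be checked against liver markers and the members could not be sorted by function.

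The liver carries out much of the body's work on sugars, fats, nitrogen and foreign compounds, and makes most plasma proteins. In vertebrates, liver transcripts are known to follow feeding, time of day, hormones, infection and genotype, so single animals kept alike can differ widely in particular genes. RNA from a piece of tissue sums all its cells, so a higher content of a cell type and more RNA per cell cannot be told apart in such libraries. No sequence is shown for the members, because the sources used here do not tie their IDs to one.

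Libraries held 29162530 to 41902929 counts. One library stood apart on the members: rotenone replicate 3 was the highest of the 10 libraries for 37 of the 150 members, and 24 of these belong to a single cluster (B below) whose values rest on it. In this library the members took 3.48% of all counts, against 1.11 to 2.43% in the other libraries. With cluster B set aside, the members took 1.12% in rotenone replicate 3 and 1.003 to 2.42% in the others. At the other end, DMSO replicate 4 was the lowest library for 43 members.

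The members spread several times more widely than other genes, by choice. Their smaller SD ran from 0.99 to 3.73 on the log2 scale with a median of 1.31, against a median of 0.22 over the other 9940 eligible genes. Between the lowest and the highest library of a group, on normalized count + 1, the median member spanned 10.97-fold in DMSO and 17.2-fold in rotenone. In 68 members the span reached 10-fold in both groups, and in 7 it reached 100-fold in both. At the edge of the choice, ranks 148, 149 and 150 had a smaller SD of 0.990, 0.987 and 0.986, and ranks 151, 152 and 153 had 0.985, 0.981 and 0.980. Values run on without a break across the edge.

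**Figure D1:**
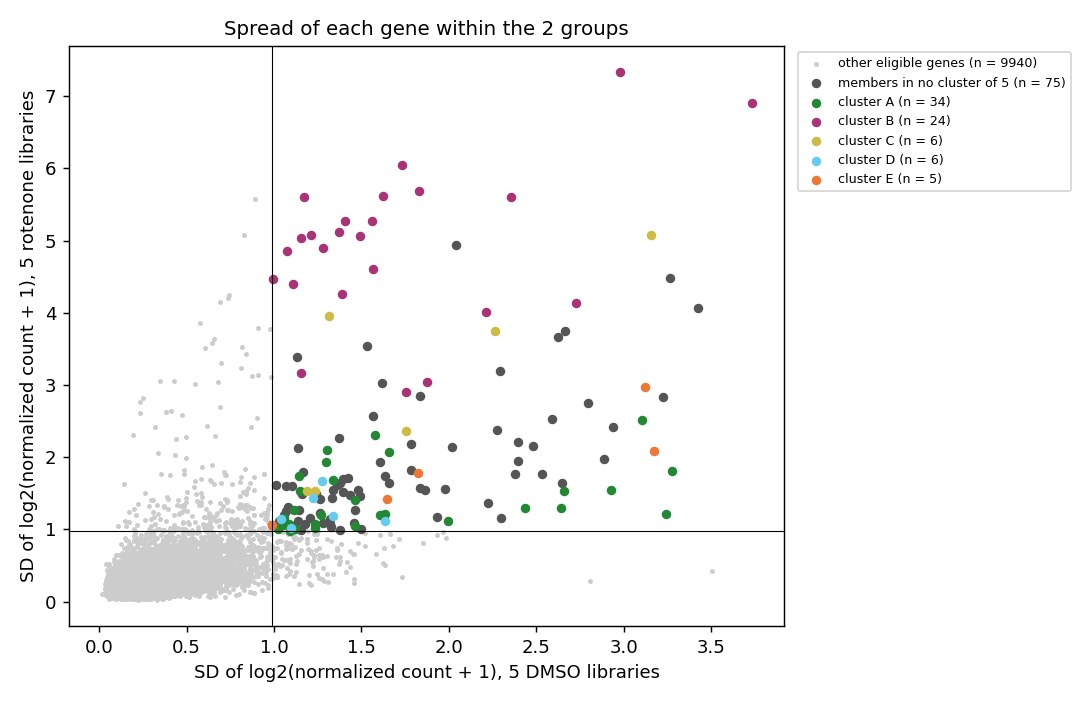
SD of log2(normalized count + 1) within the 5 DMSO libraries (x axis) and within the 5 rotenone libraries (y axis) for each eligible gene. Members (coloured by cluster) lie above both lines, drawn at the lowest smaller SD of a member (0.986), and cluster B lies high on the rotenone axis.

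Wide variation in a group was also seen in the libraries whose SDs had not chosen the genes. The required mean level was taken over all 10 libraries, however, so each list also depends on the other group. In cluster B, described below, 7 of 24 genes reach that mean without rotenone replicate 3. Of the 150 eligible genes of highest SD in DMSO alone, 69 were among the 150 of highest SD in rotenone alone, 46.0% of each list, while a list holds 1.49% of eligible genes. Genes chosen in DMSO had a median SD of 1.45 in the rotenone libraries, against 0.27 over all eligible genes. Genes chosen in rotenone had a median SD of 1.14 in the DMSO libraries, against 0.30. For scale, and as no test since the SDs chose the members, the SD expected from counting alone had a median over members of 0.099 in DMSO and 0.11 in rotenone, against observed medians of 1.45 and 1.63. By this estimate, counting error came to more than 50% of the observed SD in a group for 2 members, both in cluster B. The estimate gives a count of 0 no error, so it runs low for members with such counts.

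Members were of ordinary abundance but shorter than other genes. Their mean normalized count had a median of 776, against 692 over the other eligible genes, and their level per length a median of 11.2 RPKM against 7.08. Their gene length, implied by the deposited table, had a median of 2482 bp (interquartile range 1394 to 4366), against 3174 bp (1698 to 5313). A count of 0 in at least 1 library was found in 13 of the 150 members and in 3 of the 9940 other eligible genes. These figures are descriptions, as a floor on the mean with a high SD favours genes that are low in some libraries.

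In all, 75 members fell into 5 clusters of at least 5 genes that rose and dipped together across the libraries, and the other 75 did not. Clusters were formed from correlations of log2 values centred on each group's mean, at an average r of 0.7, and are lettered A to E by size. They hold 34, 24, 6, 6 and 5 members. Of the remaining members, 55 were in 23 clusters of 2 to 4 genes and 20 were alone. Being built from the values that chose the genes, the clusters are a description.

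**Figure D2:**
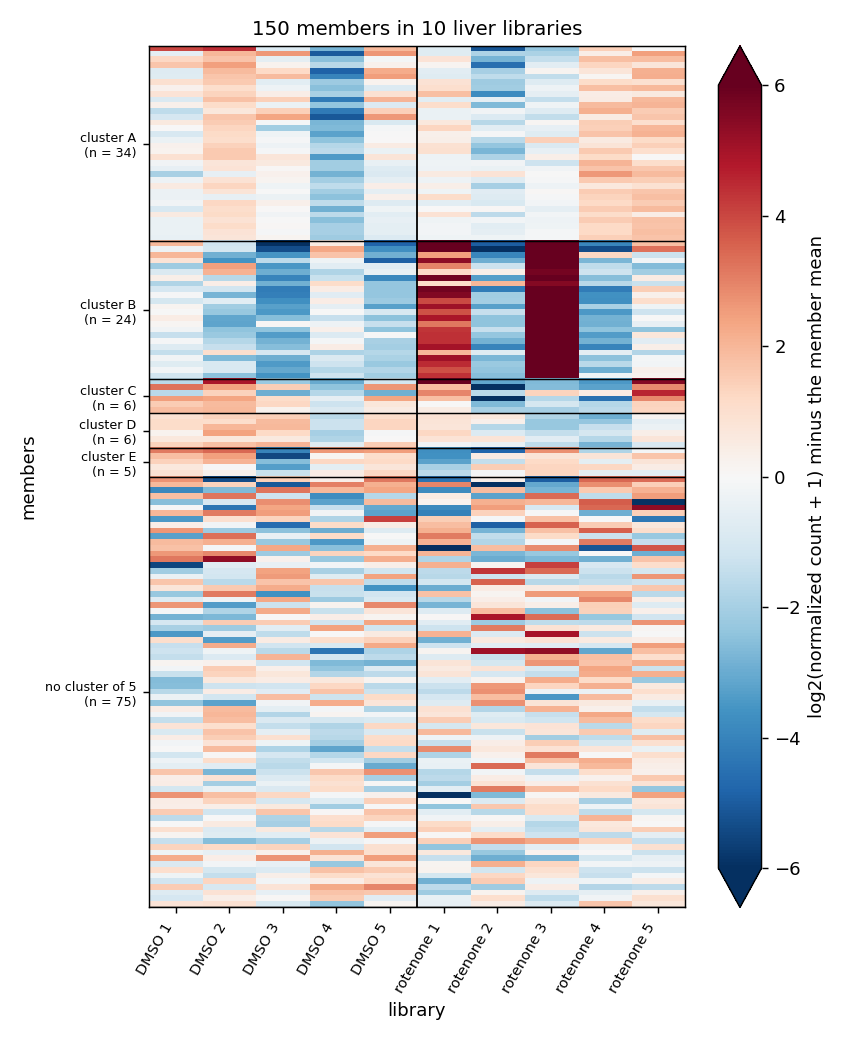
Level of the 150 members (rows) in the 10 libraries (columns), as log2(normalized count + 1) minus the member's mean over all libraries, with colours ending at 6 in either direction. Clusters A to E are set off by lines, and cluster B stands out in rotenone replicates 3 and 1.

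Members that moved together in 1 group often did so in the other. The 9 clusters made from the DMSO libraries alone held 124 members. Their 1825 pairs had a median r of 0.49 in the rotenone libraries, against 0.054 over all pairs of members. The 12 clusters made from the rotenone libraries alone held 131 members. Their 1079 pairs had a median r of 0.57 in the DMSO libraries, against 0.082. Pairs were pooled over clusters, so the largest clusters weigh most in these medians. With cluster B left out these medians were 0.46 against 0.10 and 0.65 against 0.20. Over all pairs of other eligible genes the median r was 0.0037 in rotenone and 0.018 in DMSO. Each r rests on 5 libraries and members share those libraries, so no test is given. No clusters were made in this way from other eligible genes, so the likeness between groups is not shown to be particular to members.

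Cluster A, of 34 genes, was highest in rotenone replicate 5, rotenone replicate 4 and DMSO replicate 2, and lowest in DMSO replicate 4. Its geometric mean normalized count was 1744, 4288, 2069.6, 278 and 2106 in the DMSO libraries, replicates 1 to 5 in order. In the rotenone libraries it was 2005, 654, 1249, 4312 and 4924. Both groups therefore held high and low libraries: the cluster mean spanned 15.4-fold in DMSO and 7.52-fold in rotenone on normalized count + 1. DMSO replicate 4 was the lowest library for 26 of the 34 genes and rotenone replicate 2 for the other 8.

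The member closest to the mean of cluster A was rank 141 (r = 0.93), 1410 bp long at 86.2 RPKM. Its normalized counts were 2672, 7569.9, 3744, 889 and 2405 in the DMSO libraries, replicates 1 to 5 in order, and 3143, 2302, 3024, 8065 and 11627 in the rotenone libraries. The same 3 libraries were highest here, and the groups overlapped. Genes of cluster A had medians of 59.4 RPKM and 1460 bp, with lengths from 303 to 6328 bp.

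Cluster A also moved with genes that the rule had kept out. Of the 100 most abundant genes, 10 followed its mean with r of at least 0.9 over the 10 libraries, as did 32 of the 9940 other eligible genes. A further 30 of these 9940 ran opposite to it, with r of −0.9 or lower. Library composition differed between the libraries highest on the cluster and the rest. The 3 libraries highest on it gave 49.9 to 52.9% of their counts to the 100 most abundant genes and had TMM factors of 0.786 to 0.872. In the other 7 libraries these values were 36.7 to 46.5% and 1.015 to 1.19. Within these 7, the lowest share was in DMSO replicate 4, lowest on the cluster. The TMM factors did not follow the cluster there, as the lowest was in rotenone replicate 2, which was also low on it. The 100 most abundant genes include the 10 that followed the cluster, so their share of counts is not independent of it. The part of composition in the cluster was not tested.

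Cluster B, of 24 genes, was on average close to silent in most livers and very high in rotenone replicate 3. Its geometric mean normalized count was 27.6, 12.2, 2.84, 27.6 and 6.36 in the DMSO libraries, replicates 1 to 5 in order. In the rotenone libraries it was 691, 5.34, 12746, 5.13 and 30.04. All 24 genes were highest in rotenone replicate 3, and rotenone replicate 1 came second for 22 of them. In 21 of the 24 genes the median count over the other 8 libraries was under 50, and 11 genes had a count of 0 in at least 1 library. Ranks 27, 37 and 102 were above that median, and rank 27 ran from 140 to 4600 normalized counts outside rotenone replicate 3. The cluster took 2.36% of all counts in rotenone replicate 3, 0.136% in rotenone replicate 1 and 0.00137 to 0.0145% elsewhere.

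Rank 1, the member with the highest smaller SD of all 150, belongs to this cluster. Its normalized counts were 502, 55.9, 0, 186 and 3.60 in the DMSO libraries, replicates 1 to 5 in order. In the rotenone libraries they were 9728, 3.19, 366648, 7.58 and 449. The high values lie in rotenone replicates 3 and 1, but DMSO replicate 1 and rotenone replicate 5 were also well above the lowest libraries of their groups. Rank 89, closest to the cluster mean (r = 0.996), had 5.89, 1.21, 0, 5.65 and 0.90 in DMSO and 149, 0, 3074, 0 and 3.53 in rotenone, replicates 1 to 5 in order. Rank 5 had 84.0, 49.8, 1.65, 529 and 7.20 in DMSO and 18582, 0, 68492, 1.52 and 986 in rotenone. The groups overlapped for all 3 genes. After rank 4, described below, the widest steps of the 150 between neighbouring libraries were in this cluster, at 39.3-fold (rank 29), 38.5-fold (rank 43), 37.7-fold (rank 1) and 37.1-fold (rank 56), on normalized count + 1.

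The genes of cluster B kept broadly similar proportions to each other in the libraries where they were high. Clustering on these same values favours such a likeness, and no r across other genes is given as a baseline, so the figures are a description. The step from rotenone replicate 1 to rotenone replicate 3 had a median of 19.4-fold, or 4.28 on the log2 scale, with an interquartile range of 3.97 to 4.54 and extremes of 1.88 and 5.24. Across the 24 genes, which are not independent replicates, log2 levels in rotenone replicate 3 correlated with those in rotenone replicate 1 at r = 0.93. The same r was 0.83 for rotenone replicate 5 and for DMSO replicate 1, 0.63 for DMSO replicate 4 and between 0.27 and 0.44 for the other 5 libraries, where most counts were near 0. Beyond the members, 24 of the other eligible genes and 36 of 6948 genes with a mean normalized count of 10 to 200 followed the cluster with r of at least 0.9. Without rotenone replicates 1 and 3 these counts were 3 and 1.

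The clusters' places in the list depend on single libraries. With the choice repeated without DMSO replicate 4, 13 of the 34 genes of cluster A and 1 of the 6 of cluster D were chosen again. Without DMSO replicate 3, 1 of the 5 genes of cluster E was chosen again, and without rotenone replicate 1, 2 of the 5. Cluster B depends on rotenone replicate 3. With that library left out, 7 of the 24 genes kept a mean normalized count of at least 200 and 7 were again among the 150 chosen. With rotenone replicates 1 and 3 both left out, 3 had such a mean and 3 were chosen. In the DMSO libraries the genes had low counts, and the SD expected from counting had a median of 0.44 there, against an observed median of 1.53. Counts of 0 add nothing to that expected SD, so it runs low where they occur.

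**Figure D3:**
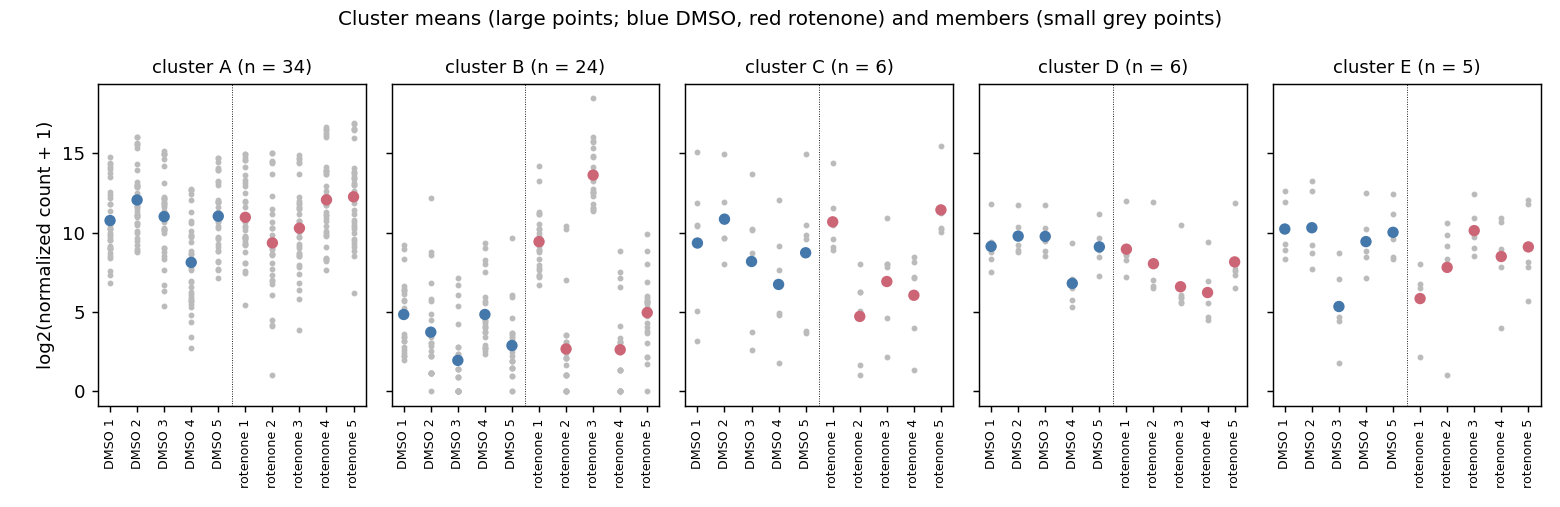
Level of clusters A to E in each library, as log2(normalized count + 1). Large points are cluster means (blue DMSO, red rotenone) and small grey points are members. The mean of cluster B is above 9 in rotenone replicates 1 and 3 only. In the other rotenone libraries this mean lies within or close to the DMSO range. The groups overlap in every cluster.

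Clusters C, D and E each had low libraries in both groups. Cluster C had geometric mean normalized counts of 651, 1851, 289.6, 106 and 425 in the DMSO libraries, replicates 1 to 5 in order, and 1646, 25.3, 120.0, 65.3 and 2775 in the rotenone libraries. Rotenone replicates 2, 3 and 4 were thus low and replicates 1 and 5 high, a span of 106-fold on normalized count + 1 within the group.

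Cluster D had 562, 880.4, 869, 111 and 550.5 in the DMSO libraries, replicates 1 to 5 in order, and 497, 263, 95.3, 73.7 and 284 in the rotenone libraries. DMSO replicate 4 and rotenone replicates 3 and 4 were low. Its genes had a median length of 6759 bp, from 2832 to 17542 bp. It had the most followers: 74 of the other eligible genes tracked it with r of at least 0.9, while 4 of the 100 most abundant genes ran opposite at −0.9 or lower. Rank 87, closest to its mean (r = 0.97), had 493, 477, 837, 91.2 and 554 normalized counts in DMSO and 388, 285, 45.5, 45.5 and 158 in rotenone, replicates 1 to 5 in order.

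Cluster E was low in DMSO replicate 3 and rotenone replicate 1. Its geometric mean normalized counts were 1202, 1272, 39.5, 693 and 1040.2 in the DMSO libraries, replicates 1 to 5 in order, and 56.4, 224, 1120.3, 361 and 549 in the rotenone libraries. Rank 33, closest to the mean (r = 0.97), had 6371, 10045, 419, 5802 and 5669 in DMSO and 261, 915, 5596, 1642 and 4208 in rotenone. No other eligible gene and none of the 100 most abundant (0 of both) followed cluster E at r of at least 0.9.

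Some members had a wide step between neighbouring libraries, though values on a side of the step could still spread widely. In 38 members (25.3%) the sorted values held a step of at least 8-fold between neighbouring libraries, on normalized count + 1, against 0.803% of all eligible genes. A high SD favours such steps, so the difference is a description. All 24 genes of cluster B were among the 38. The other 14 are described here because of their steps and were chosen after their values were seen. In 9 of these 14, each group had libraries on both sides of the step.

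The widest step of the 150, 64.4-fold, was in rank 4, a member of cluster C with a length of 16612 bp. Its normalized counts were 8.10, 817, 4.96, 2.42 and 11.7 in the DMSO libraries, replicates 1 to 5 in order, and 2979, 2.12, 3.37, 1.52 and 1254 in the rotenone libraries. DMSO replicate 2 and rotenone replicates 1 and 5 were high, and the other 7 libraries were near the floor.

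Rank 2 showed the reverse, with 3 low libraries. It had 1218, 3.64, 506, 245 and 1701 normalized counts in DMSO and 7.85, 237, 5.06, 2033 and 1907 in rotenone, replicates 1 to 5 in order. DMSO replicate 2 and rotenone replicates 1 and 3 were low. Rank 51 was low in 2 of the same libraries, DMSO replicate 2 (13.4) and rotenone replicate 1 (19.1), and between 193 and 387 in the other 8.

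Ranks 3 and 16 were both low in DMSO replicate 3 and rotenone replicate 2. Rank 3 had 656, 437, 4.13, 1386 and 762 in DMSO and 1286, 0, 19.4, 1182 and 458 in rotenone, replicates 1 to 5 in order. Rank 16 had 495, 334, 14.9, 819 and 513 in DMSO and 1341, 11.7, 4272, 1071 and 595 in rotenone. They parted in rotenone replicate 3, where rank 3 was low and rank 16 at its highest.

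Rank 28 had its high values in DMSO replicate 3 (284) and rotenone replicates 2 and 3 (1053 and 562), and lay between 11.8 and 25.5 elsewhere. Rank 7 was divided 4 to 6. Its normalized counts were 22.8 and 54.7 in DMSO replicates 1 and 2 and 24.7 and 49.7 in rotenone replicates 1 and 3, and between 1030.2 and 3269 in the others.

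Rank 22, of cluster E, was low in DMSO replicate 3 (24.8) and rotenone replicate 1 (89.7) and between 1218 and 6306 elsewhere. Rank 18, of cluster C, was low in DMSO replicate 4 (27.4) and rotenone replicates 2, 3 and 4 (1.06, 23.6 and 15.2). A single low library made the step in ranks 26 (DMSO replicate 1, 1.47), 30 and 88 (DMSO replicate 4, 43.6 and 5.65) and 109 (rotenone replicate 1, 2.24). Rank 55 was the only one of the 14 without a DMSO library on the high side. Among the 14, ranks 30 and 88 alone shared the same full set of low libraries, while single libraries recurred on the low side in several genes.

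**Figure D4:**
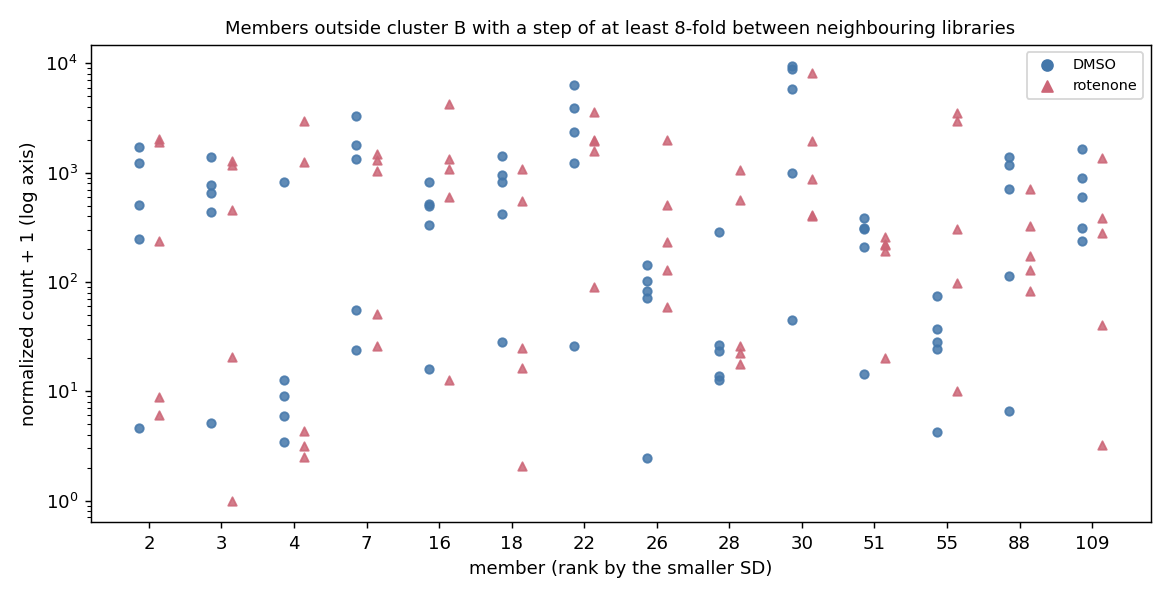
Normalized count + 1 on a log axis in each library (circles DMSO, triangles rotenone) for the 14 members outside cluster B with a step of at least 8-fold. In ranks 2, 3, 4, 7, 16, 18, 22, 28 and 51 both groups have libraries on either side of the step.

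The comparison of rotenone with DMSO asks whether treatment moved these genes beyond their spread within groups. Of the 150 members, 139 passed the count filter of the test and 11 did not, 10 of them in cluster B. Adjusted p was under 0.05 for 1 member, which was lower in rotenone, and for 0 members higher (edgeR, Benjamini-Hochberg over 16922 genes), while 0.443% of all genes tested were called, 0.295% higher and 0.148% lower. Before adjustment, p was under 0.05 for 33 members (23.7%), 25 of them higher and 8 lower, beside 22.3% of all genes tested, 11.1% higher and 11.2% lower. DESeq2 called 15 of the 128 members it tested, 10 higher and 5 lower, beside 8.81% of its genes. It gave no p-value for the other 22 members. With limma voom, 0 of 139 members and 71 of 16922 genes were called. Before adjustment, limma voom gave p under 0.05 for 17 of 139 members (12.2%) and 21.8% of all genes, so the members' share relative to all genes depends on the test. Genes chosen for a high SD have wide errors, which makes a call harder at a given difference. The share called by DESeq2 leaves out the 22 members without a p-value. With edgeR, 1 called member is too few to place the members' share above or below that of all genes. The median SE of the log2 difference was 0.80 in members and 0.23 over all genes.

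Of the 25 higher members, 13 were genes of cluster B, which rest on 2 libraries. Of the 14 genes of cluster B that were tested, 13 had an unadjusted p under 0.05 and were higher in rotenone, with a smallest adjusted p of 0.0904 (edgeR). The choice favoured this direction, since 7 of the cluster's 24 genes reach the required mean level without rotenone replicate 3. The median log2 difference of the 14 was 7.17. Without rotenone replicate 1, 14 were higher at that threshold (median 7.30), and without rotenone replicate 3, 7 were (median 3.68). Without both, 0 were (median −0.033). Outside cluster B, 20 of 125 tested members (16.0%) had an unadjusted p under 0.05, 12 of them higher in rotenone and 8 lower. Their median log2 difference was 0.26 (interquartile range −0.73 to 0.92), against 0.0026 (−0.28 to 0.28) over all genes tested. None of clusters A, C, D and E held a called gene, and their smallest adjusted p-values were 0.0911, 0.132, 0.0640 and 0.373 (edgeR).

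The called member was rank 134, Nfu_g_1_009502, of 2508 bp. Its normalized counts were 793, 226, 1099, 301 and 979 in the DMSO libraries, replicates 1 to 5 in order, and 65.1, 21.2, 23.6, 80.3 and 119.9 in the rotenone libraries. It was also the only member whose groups did not overlap (1 of 150, against 4.84% of all genes tested), with every rotenone library below every DMSO library. Members were chosen for a high SD within both groups, which favours overlap, so their low share is a description. On log2(normalized count + 1) the means of rank 134 were 9.15 ± 1.04 and 5.68 ± 1.08 (SD, n = 5 each), and the fitted log2 difference was −3.47 (SE 0.59, edgeR adjusted p = 0.0375). The call was lost with limma voom (adjusted p = 0.0505) and without any of 8 of the 10 libraries. It was kept without DMSO replicate 2 (edgeR adjusted p = 0.0173) and without DMSO replicate 4 (0.0382), and without any other single library it was 0.0537 to 0.112. Without rotenone replicates 1 and 3 it was 0.0768, and with DESeq2 on all libraries 1.03e-07. The log2 difference lay between −3.88 and −3.22 in all 17 settings tried, of which the threshold of 0.1 reuses the main fit.

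The other lower member of lowest p was rank 139, Nfu_g_1_002217, of cluster D. It had 432, 585, 719, 105 and 488 normalized counts in DMSO and 148, 126, 59.0, 24.2 and 89.3 in rotenone, replicates 1 to 5 in order. DMSO replicate 4 alone lay within the rotenone range. The log2 difference was −2.37 (SE 0.53, edgeR adjusted p = 0.0640), and adjusted p was under 0.05 without DMSO replicate 2 (0.0460) or 4 (0.0382).

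Among higher members, rank 125, Nfu_g_1_000329, had 83.3, 36.4, 54.6, 176 and 211 normalized counts in DMSO and 606, 1399, 1121, 565 and 83.5 in rotenone, replicates 1 to 5 in order. Rotenone replicate 5 was as low as the controls. The log2 difference was 2.75 (SE 0.67, edgeR adjusted p = 0.0779). Rank 55, Nfu_g_1_006520, had 36.1, 72.9, 27.3, 3.23 and 23.4 in DMSO and 96.5, 2957, 3512, 9.09 and 304 in rotenone. Rotenone replicates 2 and 3 were far above all other libraries, and the log2 difference was 5.43 (SE 1.35, edgeR adjusted p = 0.0801). Both passed an adjusted p of 0.05 with DESeq2 (0.000621 and 0.00105), as did rank 139 (0.000284).

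**Figure D5:**
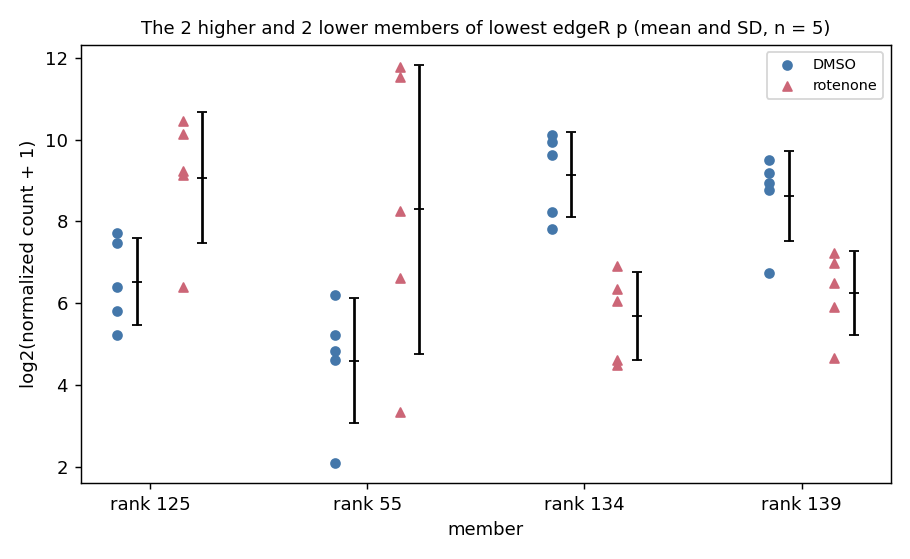
log2(normalized count + 1) in the 5 DMSO (circles) and 5 rotenone libraries (triangles) for the 4 members named by ID, with mean and SD beside each group. The groups are apart in rank 134 and overlap in ranks 125, 55 and 139.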

How the data were processed

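Liver RNA of 10 samples was sequenced from TruSeq RNA (v2) libraries, per the labels' protocols. STAR 2.4.1d, featureCounts 1.4.6-p4 and bcl2fastq 1.8.4 are listed, with no roles, in the submitters' processing notes. Build, annotation and strand use were not given in the sources used. Overlapping genes and near-identical copies may therefore share reads. The authors deposited whole-number read counts per gene, 1 column per sample, and RPKM for the same genes. Dividing counts by the deposited RPKM gave gene lengths that agreed between libraries only when the totals of the 10 libraries were cycled from gene to gene (median coefficient of variation 3.49e-05, against 0.153 with own totals, over 7713 genes). RPKM were therefore recomputed from counts, these lengths and each library's own total. The RefSeq table provided paired 0 of 26739 IDs with a name.

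The test of rotenone against DMSO was edgeR's (4.0.16, R 4.3.3; quasi-likelihood, TMM, filterByExpr, no covariates, Benjamini-Hochberg over all genes, threshold 0.05). SEs are approximate, from the F statistic. Alternatives used DESeq2 1.42.0 and limma 3.58.1. Expected counting SDs assume Poisson counts at the observed values, so a count of 0 adds no error. Scripts were tested on simulated data. Members, lists and clusters were chosen with earlier results of these data known. The planned lists of cell types and pathways need gene names and were not used. As planned for that case, the pair of members of lowest p in each direction is given by ID, and the others (the highest SDs, the closest to each cluster mean, the largest steps and the edge of the choice) by rank.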

Additional observations from a re-analysis of the deposited data

Results flagged for a closer look

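In 66 groups of 5 values (cluster means, the members' share of counts and 26 members given by rank or ID, each within a treatment), 13 had a library far from the other 4 by Dixon's ratio (critical value 0.71), 11 in DMSO and 2 in rotenone. In unselected normal samples chance marks about 1 in 20 groups. That rate is no benchmark here, because members and clusters were chosen for their spread within the same groups, many for a wide step, and several share genes. The values below are log2(normalized count + 1). DMSO replicate 4 was far below the other DMSO libraries for the mean of cluster D (6.80) and for 2 of its genes, rank 139 (6.73) and rank 87 (6.53). DMSO replicate 3 was far below for the mean of cluster E (5.34), for rank 33 of that cluster (8.71), for rank 3 (2.36) and for rank 16 (3.99), and far above for rank 28 (8.16). DMSO replicate 2 was far above the other DMSO libraries for rank 4 (9.68) and far below for rank 51 (3.84). DMSO replicate 1 was far below for rank 26 (1.31). Rotenone replicate 1 was far below the other rotenone libraries for rank 22 (6.503) and rank 51 (4.33).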

How the results depend on the processing

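No paired analysis was possible because the sample numbers in the labels differ between the groups (the numbers 1 to 5 used here only name samples) and no label ties a number to a batch or animal. Of the 150 members, 84 were chosen again with a mean count of at least 50, and 99 without rotenone replicates 1 and 3, a setting added after seeing the data. With 1 library left out the choice kept 106 to 134, the fewest without DMSO replicate 4. The other settings kept 101 to 149. The 69 genes shared by the lists made in each group were 40 on log2(RPKM + 1) and 56 to 68 with a library left out. The 38 members with an 8-fold step were 20 with log2(x + 8), 7 on log2(RPKM + 1), 14 without rotenone replicates 1 and 3, and 20 to 44 with a library left out (20 without rotenone replicate 3). Larger pseudocounts shrink steps from low values. The largest cluster of each new choice, 34 genes at first, had 22 genes with a mean count of at least 50, 55 without rotenone replicates 1 and 3, and 25 to 45 with a library left out. Members without overlap numbered 1 to 7 with a library left out, the most without DMSO replicate 4, and 6 without rotenone replicates 1 and 3. Fewer libraries give less overlap for any gene: over all genes tested the share was 5.34 to 11.9% with a library left out (9.38% without DMSO replicate 4) and 13.8% without both, against 4.67% and 4.0% of members without DMSO replicate 4 and without both. The choice for a high SD within both groups favours overlap in members. Calls among members were 0 higher and 1 lower. They were 10 and 5 with DESeq2, 0 and 0 with limma voom, and 9 and 3 at an adjusted p under 0.1. They were 0 and 0 without rotenone replicates 1 and 3. With a library left out they ran from 0 to 2 and from 0 to 3, the most without DMSO replicate 2 in both directions. Of the members tested, DESeq2 called 15 of 128, beside 8.81% of its genes. At 0.1, 12 of 139 members and 928 of 16922 genes were called. Without DMSO replicate 2, 5 of 144 members and 927 of 17122 genes were called. Over all genes the 75 calls became 31 with library size only, 71 with limma voom, 1537 with DESeq2 and 928 at 0.1. They became 0 without rotenone replicates 1 and 3 (with 3705 below 0.05 before adjustment). With a library left out they ran from 0, without DMSO replicate 5 or rotenone replicate 4, to 927, without DMSO replicate 2. Library size only moved the median log2 difference of all genes to −0.20, so directions are relative to TMM. At an unadjusted p under 0.05, members and all genes stood at 32.0% and 18.4% with no count filter and at 30.7% and 18.6% without rotenone replicate 5. With no count filter 150 members were tested, against 139 in the main test. Members stood below all genes without rotenone replicate 3 (18.6% and 22.1%) and without rotenone replicates 1 and 3 (17.9% and 21.4%), as they did with limma voom. The cause of these changes was not tested. The 4 members named by ID kept their direction in the 17 settings each, of which the threshold of 0.1 reuses the main fit. They were picked by lowest p in the same data, which favours a kept direction. Low counts limit 38 members, 21 of them in cluster B, with 10 or fewer counts in at least 1 library.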

Other observations

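Some members stood next to each other in the deposited table, whose row order is not explained in the sources used here. No figure for neighbouring rows of other genes is given, so the values below have no baseline among them. Among the 150 members, 9 pairs held neighbouring rows, 18 genes in all. In 7 of these pairs both genes were in the same cluster, small clusters included, and 3 of the 7 were in cluster B. The pairs had a median r of 0.93 over the 10 libraries, from −0.016 to 0.99, against 0.050 over all pairs of members. Ranks 1 and 5 were such neighbours (r = 0.95), as were ranks 29 and 43 (0.98), ranks 92 and 132 (0.99) and ranks 3 and 16 (0.70), both low in DMSO replicate 3 and rotenone replicate 2. Whether these pairs are near copies that share reads was not tested.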
